A study of Felis catus with 77 samples.

Results

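For 8 of the cats with fibrosarcoma, RNA libraries of both connective tissue (CT) and skeletal muscle (SM) were at hand, and the transcripts of the tissues were compared pair by pair. The 16 libraries titled CT or SM of cats 6, 8, 13, 22, 29, 30, 31 and 32 entered the comparison, out of 77 libraries in the series. All 8 animals were European Shorthair cats between 10 and 15 years old, of which 6 were female (1 of them neutered) and 2 male. The tumor lay at the shoulder in 6 of them, at the flank in cat 6 and at the chest in cat 8. CT was unaffected connective tissue and SM unaffected skeletal muscle beside the tumor. No treatment or genotype is given for either group, and both came from tumor-bearing animals, so neither represents tissue of a tumor-free cat. The tissues were cut out of formalin-fixed, paraffin-embedded sections by laser-capture microdissection (LCM), and the RNA was sequenced as 1 bulk library per tissue and cat. The tumor (T) of each of these cats and the adipose tissue (AT) of 4 of them, also sequenced, serve below to place the CT and SM levels.

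Both tissues are mesodermal, and they are built in different ways. Connective tissue consists of scattered fibroblasts in a matrix of collagens, proteoglycans and elastic fibers that these cells secrete, together with vessels and immune cells. Skeletal muscle consists of multinucleated fibers filled with sarcomeres, the contractile units of actin and myosin, with many mitochondria and sheaths of connective tissue between the fibers. Muscle fibers devote much of their messenger RNA to a small set of contractile and metabolic genes. In the study, both tissues stand for the normal surroundings from which a fibrosarcoma has to be told apart, and the comparison asks how far these references differ from each other.

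The deposited counts list Ensembl gene identifiers without symbols. None of the 19587 identifiers could be paired with a symbol here, so the genes are described as groups, single genes are given by their identifiers, and the functions of these identifiers are not known here. For the same reason the marker genes of fibroblasts, muscle fibers and other cell types could not be examined. The tissue labels were checked against libraries that the pairs do not use, namely 3 CT and 12 SM libraries of cats without a library of the other tissue. Across genes, each of the 8 CT libraries correlated better with the mean of the outside CT libraries (r between 0.781 and 0.838) than with the mean of the outside SM libraries (r between 0.521 and 0.592). Each of the 8 SM libraries stood nearer to the outside SM mean (r between 0.869 and 0.949) than to the outside CT mean (r between 0.542 and 0.701). No label was contradicted by this check.

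The SM libraries were deeper than the CT library of the same cat in all 8 pairs. CT totals lay between 847003 counts in cat 13 and 6329045, with a median of 5150932, and SM totals between 5238193 in cat 13 and 18141488, with a median of 14230976. No 2 libraries were identical. Some libraries stood apart from the others of their tissue. The CT library of cat 13 had 305 genes at more than 4 times their level in each of the other 7 CT libraries, the CT library of cat 6 had 199 genes more than 4-fold below each of the other 7, and the SM library of cat 30 stood nearest to the CT libraries on the first principal component. The SM library of cat 8 had 191 genes and the CT library of cat 32 had 147 genes more than 4-fold below the others, and the SM library of cat 13 had the most genes of its tissue at equal depth. The main counts of genes are also given without cats 6, 13 and 30, a choice made after these values were seen. As these are bulk samples, fewer cells of a type and less RNA per cell cannot be told apart.

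The transcripts of SM were concentrated in few genes, and those of CT were spread over many. In SM, the 10 most abundant genes of a library took between 29.7% and 49.1% of its counts, with a median of 42.2%, and in CT between 7.08% and 23.9%, with a median of 14.3%. The ranges did not overlap. The mean share was 15.2% ± 5.99 in CT and 42.2% ± 5.97 in SM (SD, n = 8 each), a difference of 27 percentage points that pointed the same way in 8 of 8 pairs (two-sided exact permutation test within cats, p = 0.0078, the smallest that 8 pairs allow, and 0.0078 after adjustment over 3 measures of composition).

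One and the same gene was the most abundant in all 8 SM libraries. It held 16.7% to 29.9% of the counts there and a median of 0.0212% in CT, where cat 6 stood out with 0.729% and no other library passed 0.0962%. Its log2(FC), written throughout as CT against SM so that positive values are higher in CT, was -10.54 (SE 1.51, adjusted p = 1.4e-04 in edgeR's quasi-likelihood test). In CT, 6 of the 8 libraries shared their most abundant gene, and this gene was abundant in both tissues: it ranked as number 3 in SM by its mean share, took 2.07% to 6.29% of the counts in CT and 2.59% to 4.31% in SM, and had a log2(FC) of -0.62 (SE 0.59, adjusted p = 0.41). These shares count reads and are not corrected for gene length.

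The 50 most abundant genes of each tissue overlapped in 4 genes. The most abundant SM gene was among them only through cat 6, since it ranked as number 48 in CT by its mean share and as number 404 without that cat. Of the SM list, 48 were higher in SM and 2 did not pass the test, with a median log2(FC) of -9.70. Of the CT list, 28 were higher in CT, 3 were higher in SM and 19 did not pass, with a median log2(FC) of 1.36. The lists were drawn from these libraries, so the counts describe them and test nothing. The 46 genes found in the SM list alone took 0.329% to 1.18% of the counts of CT libraries, highest in cat 6, and 16.5% to 32.4% of those of SM libraries, lowest in cat 30. The 46 genes of the CT list alone took 7.93% to 25.1% in CT, lowest in cat 13, and 1.07% to 4.13% in SM, highest in cat 30. The SM library of cat 30 thus held the least of the abundant SM genes and the most of the abundant CT genes.

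At an equal depth of 847003 counts, between 12156 and 18332 genes were detected in CT and between 10905 and 15574 in SM, with medians of 12762 and 11952. The mean was 13426 ± 2022 in CT and 12309 ± 1453 in SM, and CT was higher in 8 of 8 pairs, by 1117 ± 1001 genes (SD, n = 8, two-sided exact permutation test, p = 0.0078, adjusted 0.0078). The highest value of both tissues belonged to cat 13. The difference was not held without the abundant SM genes: once the 50 most abundant SM genes were left out before the libraries were brought to one depth, CT was higher in 4 of 8 pairs, by 209 ± 859 genes (exact permutation test, p = 0.51). The effective number of genes, the number of equally abundant genes that would give the same diversity, was 3158 ± 1899 in CT and 391 ± 253 in SM (SD, n = 8 each, exact permutation test, p = 0.0078, adjusted 0.0078). Without those 50 genes it was 3846 ± 1991 in CT and 4135 ± 622 in SM (exact permutation test, p = 0.65). The 50 genes were chosen in these same SM libraries and took 38.0% to 65.3% of the counts there, against 3.19% to 7.79% in CT. No list of abundant CT genes was left out. Both comparisons without the 50 genes thus rest on a removal that acts mainly on SM, and they are given as a description.

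**Figure D1:**
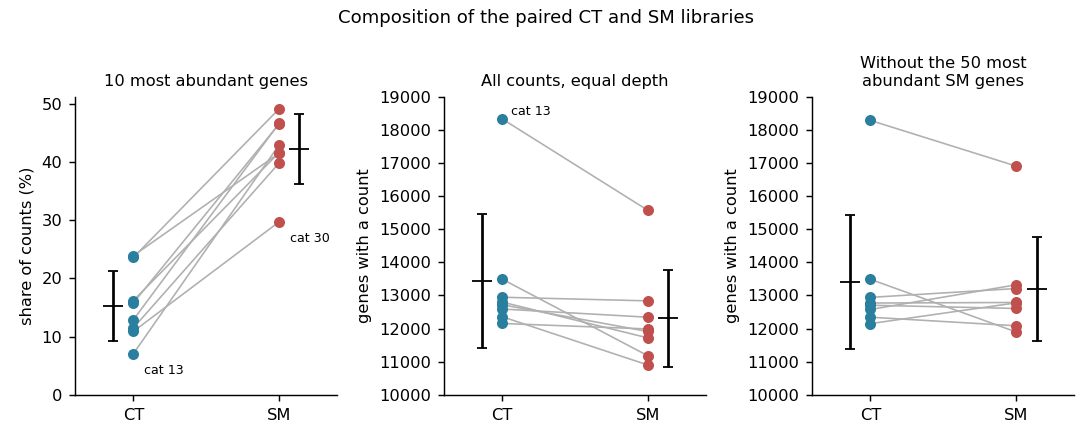
Composition of the 8 CT (blue) and 8 SM (red) libraries: the left panel shows the percentage of counts in the 10 most abundant genes of a library, the middle panel the number of genes with a count at an equal depth of 847003, and the right panel the same number at 819979 counts once the 50 most abundant SM genes are left out (the axes of the last 2 do not start at 0). Lines join the libraries of a cat, and bars give mean ± SD. SM is above CT in 8 pairs on the left, CT is above SM in 8 pairs in the middle and in 4 of 8 pairs on the right.

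PCA of log2 CPM separated the tissues along the first component. PC1 carried 51.4% of the variance, with scores between 44.4 (cat 13) and 109 in CT and between -138 and -34.2 (cat 30) in SM. PC2, with 9.64%, set cat 13 apart in both tissues: its scores were 137 in CT and 59.9 in SM, and no other library scored above 1.25. PC3, with 5.73%, held the CT library of cat 6 at 116, with no other CT library above -1.23. Over all genes tested, tissue accounted for 48.4% of the sum of squares (exact permutation test swapping labels within cats, p = 0.0078). The cat accounted for 30.0% and the rest for 21.6%. The share of the cat was not tested, and with more cats than tissues it is not directly comparable with the tissue share. Without cat 13 the tissue share was 53.2% (p = 0.016, again the smallest possible in this exact test). With rarely counted genes kept the tissue share was 30.4% and the untested share of the cat 47.0%.

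CT libraries had lower correlations with each other than SM libraries, and they were also shallower. Across genes, the correlation between 2 CT libraries had a median of 0.804 over 28 pairs of libraries, and between 2 SM libraries a median of 0.881. CT and SM of the same cat correlated with a median of 0.583, close to the 0.569 between CT and SM of different cats. These correlations share libraries and are given as a description. The lowest agreement with its own tissue was that of the CT library of cat 13, with a median of 0.639, which was also the shallowest library.

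**Figure D2:**
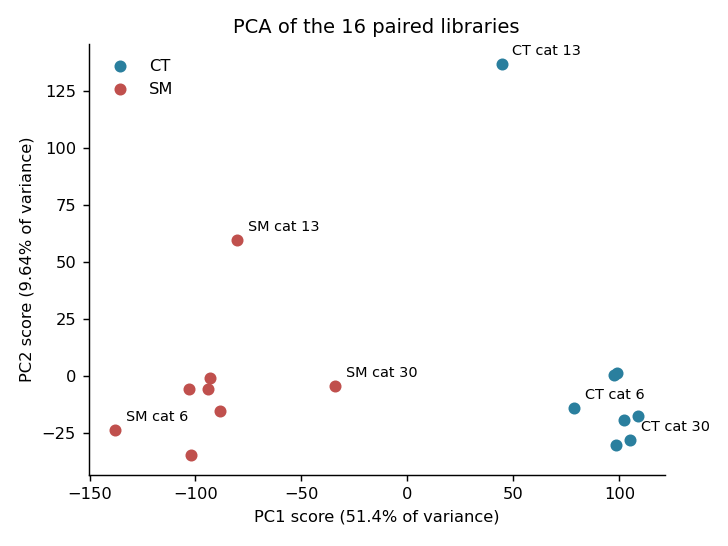
PCA of the 16 libraries on log2 CPM of the genes tested, with the PC1 score on the horizontal axis (51.4% of the variance) and the PC2 score on the vertical axis (9.64%). All CT libraries (blue) lie at 44.4 or more and all SM libraries (red) at -34.2 or less, while cat 13 stands above the others in both tissues.

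Of 12022 genes tested with the cat as a block, 2164 were higher in CT (18%) and 1929 were higher in SM (16%). A gene was called where the FDR of edgeR's quasi-likelihood test (Benjamini-Hochberg) was below 0.05 and the fold change was above 2. Without the limit on log2(FC), 5590 genes passed (46.5%). CT thus had 52.9% of the calls. This balance depends on the scaling: TMM, which sets the libraries level on genes that change little, left a median log2(FC) of 0.10 over all genes, whereas scaling to the library total alone moved the median to 1.29 and the calls to 6642 in CT and 703 in SM (90.4% CT). This change moves all genes together toward CT, so genes with small differences toward SM change sign under it and genes with large ones do not. With cats 6, 13 and 30 left out, 1687 genes were higher in CT and 1959 in SM.

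Under TMM scaling, the SM-higher genes differed by larger folds. The median log2(FC) was 1.66 among the CT-higher genes (median SE 0.35) and -1.88 among the SM-higher genes (median SE 0.32). Scaling to the library total alone moved the median of all genes from 0.10 to 1.29. This shift is larger than the gap in size between the medians of the called genes, so for these same lists the order can change with the scaling. Medians of genes called anew without TMM are not given here. Beyond 4-fold there were 661 CT-higher and 902 SM-higher genes, beyond 16-fold 60 and 368, and beyond 64-fold 6 and 212. The fitted extremes were 7.33 and -12.81, and values of this size depend on the small count that edgeR adds where a tissue has almost no reads. When the test itself asked for more than a 2-fold change, 827 genes were called in CT and 1135 in SM.

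The shares of CT-higher and SM-higher genes, called under TMM scaling, changed with the level of expression. The genes were divided into 4 equal groups by mean level over these same CT and SM libraries. A gene far higher in a tissue gains mean level from it, so level and call are not independent. In the lowest group, 15.2% were higher in CT and 6.35% in SM. In the highest, 16.2% were higher in CT and 27.3% in SM. The precision differed as well, since the median SE of log2(FC) fell from 0.68 in the lowest group to 0.20 in the highest, so a low-level gene had to differ more to be called.

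**Figure D3:**
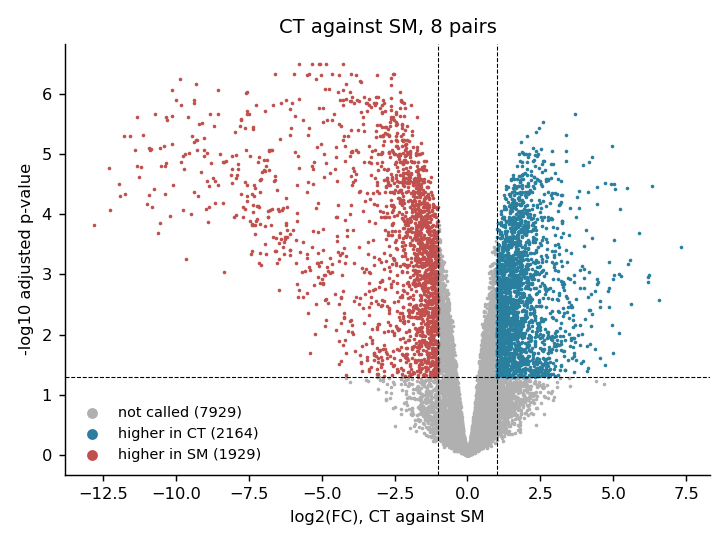
Volcano plot of the 12022 genes tested, with log2(FC) of CT against SM on the horizontal axis and -log10 of the adjusted p-value on the vertical axis. Blue points are the 2164 genes higher in CT, red points the 1929 higher in SM and grey points the genes not called, and dashed lines mark a log2(FC) of 1 either way and an adjusted p of 0.05. The red points reach -12.81 and the blue points 7.33.

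The called genes moved the same way in nearly every cat. Of the CT-higher genes, 1442 (66.6%) were above SM in all 8 pairs and 95.1% in at least 7. Of the SM-higher genes, 1575 (81.6%) were above CT in all 8 pairs and 97.8% in at least 7. Among all genes tested, 15.6% lay above in CT and 17.0% above in SM in all 8 pairs. Since the calls come from the same pairs, these shares describe how the calls are made up.

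A stricter view asks for genes whose 8 libraries of one tissue all lay beyond the 8 of the other. After TMM scaling, on which these counts also depend, there were 445 such genes with CT above (3.7% of the genes tested) and 1097 with SM above (9.12%). Of the called genes, 411 of the CT-higher (19%) and 1014 of the SM-higher (52.6%) were separated in this way. One library could decide the count: setting aside the CT library of cat 13 alone raised the 2 numbers to 762 and 1297, and setting aside the SM library of cat 30 alone to 780 and 1398. Without cats 6, 13 and 30 they were 1695 and 1922.

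Genes seen in one tissue alone were few. In total 3 genes had at least 10 counts in each SM library and none in any CT library, whose counts sum to 36482404, and no gene showed the reverse, where the SM counts sum to 106668810. With up to 8 counts allowed over all CT libraries, 17 genes had at least 10 counts in each SM library. Leaving out cat 13, the shallowest CT library with the most genes, raised the numbers without any count in the other tissue to 26 for SM and 1 for CT. A gene without a count in CT can still be expressed there below this depth.

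With TMM scaling, a large group of genes differed little between the tissues. For 2977 genes (24.8% of those tested) the 95% interval of log2(FC) lay within 2-fold either way, and for 434 (3.61%) within a log2(FC) of 0.5. Without TMM these numbers were 1061 and 79, and 26 of the 2977 genes were among the 1061, so which genes count as level is set by the scaling. By contrast, 3790 of the 6432 genes that missed an adjusted p of 0.05 had an interval reaching beyond 2-fold, so for these a difference was not detectable and a 2-fold difference is not set aside.

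The 4 identifiers are given in full, 2 higher in each tissue: those with the smallest p-values among called genes that had at least 10 counts in all 16 libraries and moved the same way in all 8 pairs, a rule met by 1076 CT-higher and 1012 SM-higher genes. Their values are in CPM, counts scaled to the library total and by TMM, which are compared between tissues and not between genes.

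ENSFCAG00000028703 stood between 461.5 CPM (cat 13) and 2612.4 CPM (cat 30) in CT, with a median of 1838.6, and between 56.6 CPM (cat 22) and 219.3 CPM (cat 30) in SM, with a median of 119. The lowest CT library was more than double the highest SM library, and cat 30 was the highest in both tissues. The log2(FC) was 3.68 (SE 0.29, 95% interval 3.05 to 4.31, edgeR adjusted p = 2.2e-06), and the difference pointed the same way in 8 of 8 pairs. ENSFCAG00000012182 stood between 86.6 CPM (cat 29) and 264.5 CPM (cat 32) in CT, with a median of 177.6, and between 17.7 CPM (cat 29) and 37.7 CPM (cat 32) in SM, with a median of 28.1. The tissues did not overlap, and the cats at the ends of the range were the same in both. Its log2(FC) was 2.58 (SE 0.21, 95% interval 2.12 to 3.04, edgeR adjusted p = 2.9e-06).

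Of the SM-higher identifiers, ENSFCAG00000037539 stood between 24.6 CPM (cat 30) and 41.4 CPM (cat 6) in CT, with a median of 31, and between 478.3 CPM (cat 30) and 2144.8 CPM in SM, with a median of 1374. Its CT values were the most even of the 4 identifiers, and the SM library of cat 30 lay apart below the other 7. The log2(FC) was -5.32 (SE 0.25, 95% interval -5.87 to -4.77, edgeR adjusted p = 3.2e-07). ENSFCAG00000018528 stood between 7 CPM and 27.3 CPM in CT, with a median of 11.4, and between 226.8 CPM and 688.3 CPM in SM, with a median of 419.9. The tissues were separated by more than 8-fold at their nearest libraries. The log2(FC) was -5.10 (SE 0.26, 95% interval -5.67 to -4.54, edgeR adjusted p = 3.2e-07).

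All 4 identifiers were also called in the libraries outside the pairs, with log2(FC) of 3.15 (SE 0.70, edgeR adjusted p = 3.2e-03) for ENSFCAG00000028703, 3.47 (SE 0.50, adjusted p = 4.9e-05) for ENSFCAG00000012182, -5.88 (SE 0.60, adjusted p = 1.2e-06) for ENSFCAG00000037539 and -6.83 (SE 0.70, adjusted p = 1.4e-06) for ENSFCAG00000018528. In T, both CT-higher identifiers had low means: on a log2 CPM scale set jointly for CT, SM, AT and T of these cats, ENSFCAG00000028703 averaged 10.67 ± 0.93 in CT, 7.05 ± 0.64 in SM and 2.77 ± 3.17 in T, and ENSFCAG00000012182 averaged 7.51 ± 0.71, 4.99 ± 0.30 and 2.12 ± 2.85 (SD, n = 8 each). The T mean lay below both normal tissues for these 2 identifiers, but single tumors ranged from -2.0, the value of a library with 0 counts, to 6.69 and 5.29, which is within the SM ranges of 6.05 to 7.98 and 4.44 to 5.46. In AT (n = 4), ENSFCAG00000028703 averaged 7.59 ± 0.89, near SM, whereas ENSFCAG00000012182 averaged 8.05 ± 0.63, near CT. The SM-higher identifiers had T levels near or below those of CT, at 4.77 ± 0.52 against 5.14 ± 0.26 for ENSFCAG00000037539 and 2.55 ± 0.82 against 3.79 ± 0.60 for ENSFCAG00000018528.

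**Figure D4:**
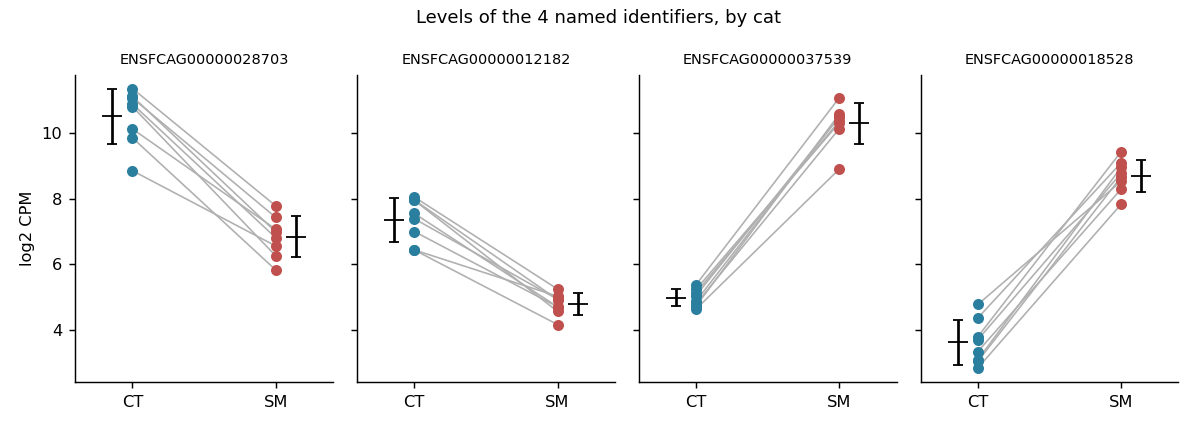
Level of the 4 identifiers in log2 CPM (vertical axis) in CT (blue) and SM (red), with a line for each cat and bars for mean ± SD (n = 8 each). All lines slope the same way within a panel, and the lowest SM point of ENSFCAG00000037539 is cat 30 at 8.90.

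The size of the tissue difference varied between cats. Genes were called in 7 cats at a time and then read in the cat left out, whose libraries took no part in the call. The median difference in the cat left out was between 0.77 (cat 30) and 2.40 (cat 6) on the log2 scale for the CT-higher genes and between -2.59 (cat 6) and -1.13 (cat 30) for the SM-higher genes. Cat 6 had the widest difference and cat 30 the narrowest, in both directions. The narrow difference of cat 30 lay mainly on the SM side, since its CT-higher genes had a median of 4.99 log2 CPM in CT, within the 4.85 to 5.04 of the other cats, and of 4.2 in SM, above the 2.65 to 3.69 of the others. Between 85.2% (cat 30) and 95% of the CT-higher genes and between 88.1% (cat 13) and 98.2% of the SM-higher genes kept their direction in the cat left out.

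The same genes were then read in other cats. In the 3 CT and 12 SM libraries outside the pairs, of which no cat gave both tissues, 803 of 16237 genes tested were higher in CT (4.95%) and 1611 were higher in SM (9.92%) by the same call. Of the 2155 CT-higher genes of the pairs that were tested there, 551 were called again (25.6%), none was called the opposite way, 96.5% had the same sign and the median log2(FC) was 1.54. Of the 1929 SM-higher genes, 1252 were called again (64.9%), 1 was called the opposite way, 97.8% had the same sign and the median was -2.05. The median log2(FC) of all genes in this fit was 0.51, a general shift toward CT that adds to the CT-higher values and takes from the SM-higher ones. The contrast between the lists depended on TMM: without it the median of all genes was 1.92, 71.6% of the CT-higher and 24.9% of the SM-higher genes were called again, 35 SM-higher genes were called the opposite way and 68.9% had the same sign. The CT side rests on 3 libraries. Leaving out the outside libraries of cats 11 to 17, the run of case numbers that holds cat 13, left 1 CT library, and 76.9% of the CT-higher genes then had the same sign and 6 were called the opposite way, while the median log2(FC) of all genes was -1.14. The SM-higher share stayed at 97.8%, in a fit whose general shift toward SM favors that sign.

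The called genes were also placed in the other tissues of the 8 cats, as a description with no test, since they were chosen on CT and SM. Together the CT-higher genes took 22.6% to 40.2% of the counts of CT libraries (median 33.2%) and 1.45% to 10.7% of SM libraries (median 3.96%), the last value being cat 30. In T they took 26% to 37.6% (median 29.1%), a range that lay within that of CT. In AT they took 12.6% in cat 6 and between 20.6% and 25.4% in the other 3 cats.

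The SM-higher genes took 49.0% (cat 30) to 80.7% of the counts of SM libraries (median 70.3%), and 7.83% to 10.3% of CT libraries (median 9.03%). In T they took 8.08% to 11.2%, close to CT. In AT they took 10.9% to 12.4% in cats 13, 29 and 31 and 45.0% in cat 6. The AT library of cat 6 thus came near the SM library of cat 30 in this measure. Whether it held muscle was not tested, because no marker gene could be identified.

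Gene by gene, the T mean stood nearer to SM than to CT for 307 of the 1929 SM-higher genes (15.9%), and the AT mean for 20.4%, so most of these genes stood nearer to CT in both. Of the CT-higher genes, 58.6% stood nearer to CT in T and 53.3% in AT. In T, 677 CT-higher genes lay above both normal tissues and 441 below both, while 691 of the SM-higher genes lay below both and 45 above both. The same shares over all genes tested are not given here, so these numbers describe the lists without a background to compare them with.

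**Figure D5:**
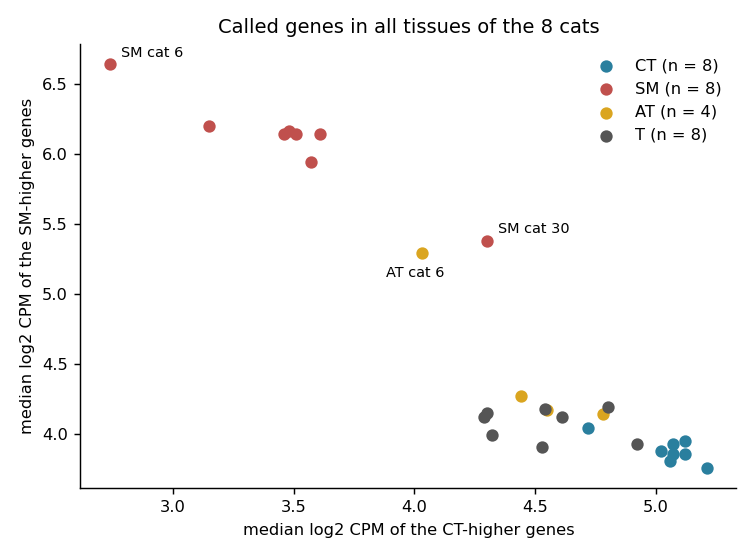
Median log2 CPM of the 2164 CT-higher genes (horizontal axis) and of the 1929 SM-higher genes (vertical axis) in each library of the 8 cats, scaled jointly. CT (blue, n = 8) and SM (red, n = 8) lie at opposite ends because the genes were chosen on them, T (grey, n = 8) and 3 of 4 AT libraries (yellow) lie near CT, and the AT library of cat 6 lies beside the SM library of cat 30.

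By edgeR, few genes were called as differing between cats, and DESeq2 called more. With tissue in the fit, edgeR's quasi-likelihood test found 20 genes (0.166% of those tested) that differed between the 8 cats at an FDR below 0.05. Before adjustment 1086 had a p below 0.05. DESeq2's likelihood ratio test called 754 genes, all 20 among them, so the number depends on the tool. In a simulated comparison of the tissues, DESeq2 recovered 85.5% of 200 changed genes and called 58 unchanged ones. There edgeR recovered 71% and called 3 unchanged ones. DESeq2's test between cats was not simulated. A gene need not differ between cats in both tissues to pass, and this was not tested. In simulated data, 200 genes were shifted by a log2(FC) of 3 in both tissues of a single cat, with no other difference. There edgeR's test between cats recovered 60.5% of them, so such genes can be missed, and it also called 10 unchanged genes. Other patterns of difference between cats were not simulated. Without cat 13 edgeR called 11. Of the 20 genes, 7 were also higher in CT and 9 higher in SM, and the cat farthest from the others was cat 32 for 8 of them, cat 30 for 5 and cat 13 for 3. Sex, age and site differ between these cats along with the individual, and their parts cannot be told apart here.

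The tissue difference was compared between the 6 cats with shoulder tumors and the 2 with tumors of the flank and chest. By edgeR's interaction term, 0 of 12022 genes (0%) passed an adjusted p under 0.05 and 747 (6.21%) had an unadjusted p under 0.05, and no other tool was run. With 2 cats in the smaller group and 1 cat per site there, a difference by site was not detectable with these samples.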

How the data were processed

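RNA from FFPE tissue isolated by LCM was sequenced with a stranded total RNA kit for low input. Per library, the authors deposited raw, whole-number counts for the Ensembl identifiers of the cat genome Felis_catus_9.0. The paper's methods name Trimmomatic and Kallisto, while the submitters' processing notes name STAR and featureCounts, so the source of the counts is not settled here. Whether strand was used in counting is not given in the sources used here, and reads of overlapping, antisense or near-identical genes could be misassigned.

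Tissue and cat were taken from the library titles and, for the site, sex and age, from the paper. Libraries with the same number came from the same cat, so they are paired. Their deviations from the tissue means correlated with r between 0.028 and 0.456 (median 0.078, against -0.006 between different cats). The highest values were 0.456 in cat 13 and 0.27 in cat 30. The CT library correlated best with the SM library of its own cat in 5 of the 8 cats. The 16 libraries had 847003 to 18141488 counts, which sets the precision for rarely counted genes. Genes were compared in R 4.3.3 with edgeR 4.0.16 (quasi-likelihood test, TMM, filterByExpr by tissue, cat as block, Benjamini-Hochberg), limma 3.58.1 and DESeq2 1.42.0, and 12022 genes passed the filter. Log2 CPM used a prior count of 2. Single values were tested by exact permutation over the 256 arrangements of labels within cats, in Python 3.11.15 with scipy 1.17.1. Scripts were tested on simulated data.

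The members, gene lists and alternatives were chosen with earlier results of these data known. The alternatives were DESeq2, limma-voom, other scalings and filters, no block, each cat left out, shoulder cats only, all CT and SM libraries, 4 tissues in one fit, thinning to 847003 counts and a test against 2-fold. Added after the data were seen were leaving out cats 6, 13 and 30, leaving the 50 most abundant SM genes out of totals or counts, the intervals without TMM, and the interaction with site. The reference table of 39307 genes matched 0 identifiers, so 38 gene lists, cell type markers and sequences were not analysed here. Named identifiers were the 2 per direction with the smallest p among called genes with at least 10 counts in all 16 libraries and the same direction in all 8 pairs.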

Additional observations from a re-analysis of the deposited data

Results flagged for a closer look

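Dixon's test was applied to 34 groups of 8 libraries or pairs, and 14 values stood apart, where independent groups would give about 1.7 by chance (5% of groups). Many of the groups are related measures of the same libraries, so the 14 cannot be weighed against this number. Cat 13 gave 8 of them. Its CT library had 18332 genes at equal depth (the next had 13497), a share of 2.07% in its most abundant gene (next 5.08%), an effective number of genes of 7563 (next 3338), a share of 3.19% in the 50 most abundant SM genes (next 6.03%), a PC1 score of 44.4 (next 78.6) and a PC2 score of 137 (next 1.25). Its SM library had 15574 genes at equal depth (next 12838) and a PC2 score of 59.9 (next -0.894). These 8 values are not independent, since they come from the same 2 libraries.

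The SM library of cat 30 gave 5. Its effective number of genes was 980 (next 416), the 50 most abundant SM genes took 38.0% of its counts (next 53.0%), the CT-higher genes took 10.7% (next 4.81%) and the SM-higher genes 49.0% (next 67.7%), and ENSFCAG00000037539 stood at 8.90 log2 CPM (next 10.1). The CT library of cat 6 stood apart on PC3 with a score of 116 (next -1.23).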

How the results depend on the processing

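Over 195 values recomputed under alternatives, 182 kept their direction and call or, for counts of called or level genes, stayed within 1.5 times. Of the rest, 12 such counts moved by more, 1 value lost its call and 0 reversed. Counts of genes cannot reverse, and many of these values belong to the 4 named identifiers, which were chosen for small p-values. The 0 therefore has little weight. Of the 4093 called genes, 254 changed sign without TMM. Without TMM, 6642 genes were higher in CT, 703 higher in SM and 8493 passed without a limit on log2(FC), and outside the pairs 1544 CT-higher and 480 SM-higher genes were called again, while 1061 and 79 genes had an interval within 2-fold and within a log2(FC) of 0.5. Scaling to totals that leave out the 50 most abundant SM genes gave 2321 and 1778. A test against 2-fold called 827, 1135 and 1962 genes, since it asks for more. Genes differing between cats numbered 11 without cat 13 (the only cat left out for this count) and 754 in DESeq2, and the cause was not tested. The difference in genes at equal depth was 209 without the 50 most abundant SM genes and 3058 when 10 counts were asked for in place of 1. Leaving out each cat in turn gave 1855 to 2086 genes higher in CT, 1764 to 2105 higher in SM and 4941 to 5393 without the limit. Without the paired block, 2075, 1786 and 5385 genes passed, and no other call changed by over 1.5 times. Thinned to 847003 counts, where 7839 genes could be tested, 1598 and 1410 were called. With all 11 CT and 20 SM libraries, CT had 60.8% of the calls. Depth limits what can be said of low-level genes: the median SE in the lowest of 4 groups by level was 0.68.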
